A study of Homo sapiens with 10 samples.

Results

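The transcripts of 8 genes of cell death signalling were followed in SKBR3 cells: the death ligand TRAIL (TNFSF10), its receptors TNFRSF10A and TNFRSF10B, the receptor FAS, and the caspases CASP8, CASP10, CASP9 and CASP4. Every probe set that carried 1 of these symbols and no other was taken, which gave 27 of the 54675 probe sets on the array and 8 of its 19775 genes with such a probe set. SKBR3 is an established HER2-amplified breast carcinoma line, and all groups carried its mutant p53. Cells in medium with charcoal-stripped serum were transfected with 1 of 2 siRNAs, p53i, directed at p53, or LacZi, a negative control directed at a bacterial gene. For each siRNA, 1 array was hybridised after 8, 20 and 50 h with 100 nM calcitriol (hormonal vitamin D3, D3 here) and 2 arrays came from untreated cells, 10 arrays in all. One p53i array, at 8 h, has a title with another spelling of its siRNA and was grouped by its source name, on which its values and the matched 8 h differences rest. Without it 0 members were called between the siRNAs. The comparisons ask what p53 siRNA does to these transcripts, what D3 does, and whether the siRNA alters the response to D3. The sample text adds D3 24 h after transfection and the series text 48 h, and nothing in the sources used here settles which. The labels give the untreated arrays no harvest time of their own, so effects of D3 and of longer culture cannot be told apart. Untreated duplicates carry the label of biological replicates, while nothing says the D3 arrays came from separate cultures, so p-values cover only the spread among these samples, part of which may be technical.

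TRAIL and FAS ligand bind death receptors on the cell surface, and the bound receptors recruit adaptors that bring the initiator caspases CASP8 and CASP10 together so that they cut and activate each other. CASP9 is the initiator of the other route, in which cytochrome c released from mitochondria builds the apoptosome. CASP4 belongs to the inflammatory caspases: it binds bacterial lipopolysaccharide in the cytosol and cuts gasdermin D, which opens pores in the membrane. In human cells FAS and TNFRSF10B are known targets of wild-type p53, and TNFSF10 and CASP4 are known to be inducible by interferons. Caspases are made as inactive precursors, so a transcript level does not tell how active they are.

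The start regions of 4 of these genes are shown because CASP4, CASP8 and CASP9 had the smallest p-values between the siRNAs among the tested members and TNFSF10 had a probe set whose signals did not overlap between them. Each is 300 bases long, with 250 before the transcription start and 50 from it on, taken from RefSeq on build GRCh38.p14, which held such regions for 5 of the 8 genes. They run 5′ to 3′ on the gene's strand, and for CASP8 and CASP9, with 3 and 2 listed starts, the first listed is given. TNFSF10 lies at chr3:172523381-172523680 on the minus strand, CASP8 at chr2:201233213-201233512 on the plus strand, CASP9 at chr1:15524166-15524465 on the minus strand and CASP4 at chr11:104968525-104968824 on the minus strand. Capitals mark matches, on either strand, to the core of the interferon-stimulated response element, TTCNNNGAA (core of STAT sites), GGTTCA (a half-site of the vitamin D receptor), GGGCGG (GC box) and, as a form of the core promoter element called the TATA box, to TATAAA.
TNFSF10: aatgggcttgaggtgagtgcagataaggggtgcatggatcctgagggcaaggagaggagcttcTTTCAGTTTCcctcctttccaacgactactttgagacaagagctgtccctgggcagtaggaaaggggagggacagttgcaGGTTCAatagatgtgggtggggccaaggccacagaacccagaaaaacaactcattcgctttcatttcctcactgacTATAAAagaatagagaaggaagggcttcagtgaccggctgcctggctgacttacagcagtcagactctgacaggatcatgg
CASP8: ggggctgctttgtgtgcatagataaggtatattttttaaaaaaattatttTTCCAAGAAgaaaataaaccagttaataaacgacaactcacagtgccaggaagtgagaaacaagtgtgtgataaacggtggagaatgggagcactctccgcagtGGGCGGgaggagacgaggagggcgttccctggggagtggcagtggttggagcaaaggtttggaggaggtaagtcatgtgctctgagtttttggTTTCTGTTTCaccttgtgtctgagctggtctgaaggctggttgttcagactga
CASP9: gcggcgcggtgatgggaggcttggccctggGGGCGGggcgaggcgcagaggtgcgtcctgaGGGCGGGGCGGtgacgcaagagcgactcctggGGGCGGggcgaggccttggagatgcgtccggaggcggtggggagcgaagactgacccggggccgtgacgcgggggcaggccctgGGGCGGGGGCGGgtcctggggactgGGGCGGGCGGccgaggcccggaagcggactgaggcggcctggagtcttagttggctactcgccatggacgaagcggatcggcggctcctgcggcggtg
CASP4: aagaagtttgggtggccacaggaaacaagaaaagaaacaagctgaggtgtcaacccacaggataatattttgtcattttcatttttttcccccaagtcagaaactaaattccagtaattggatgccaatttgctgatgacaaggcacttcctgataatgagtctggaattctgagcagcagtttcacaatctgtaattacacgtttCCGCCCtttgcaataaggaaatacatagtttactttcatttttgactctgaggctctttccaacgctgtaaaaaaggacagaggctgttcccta
The TNFSF10 region held 1 match each to the interferon element core, the vitamin D receptor half-site and the TATA box. The CASP8 region shown held 1 match each to the interferon element core, the STAT core and the GC box. At listed starts 2 and 3 of CASP8, which are not shown, there were 0 matches to these CASP8 elements. The CASP9 region held 8 GC boxes, some of them overlapping, and 76.0% of its bases were G or C, while the CASP4 region held 1 GC box and 39.7% G or C, against a median of 58.7% over all 35116 listed start regions. Of those regions, 3.57% held the interferon element core, 7.66% the STAT core, 8.62% the vitamin D receptor half-site, 45.0% the GC box and 11.5% the TATA box. A match is a description of the letters and was not tested as a binding site.

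The deposited values are MAS5 signals, a linear intensity per probe set scaled to the same trimmed mean on every array. At low signals the measurement is noisy because background makes up much of it. Differences are on the log2(signal + 16) scale, which understates those of dim probe sets, and were tested for the probe sets in the upper 50% by mean, which corresponds to a signal of 35.3. Of the 27 member probe sets 11 passed this filter: all 3 of TNFRSF10A, 2 of 4 of TNFRSF10B, 1 of 3 of CASP8, 1 of 4 of CASP10, 2 of 3 of CASP9 and both of CASP4. None of the 3 TNFSF10 or 5 FAS probe sets passed. In the plot of all members, FAS and TNFSF10 lay mostly left of the filter on both siRNAs.

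**Figure D1:**
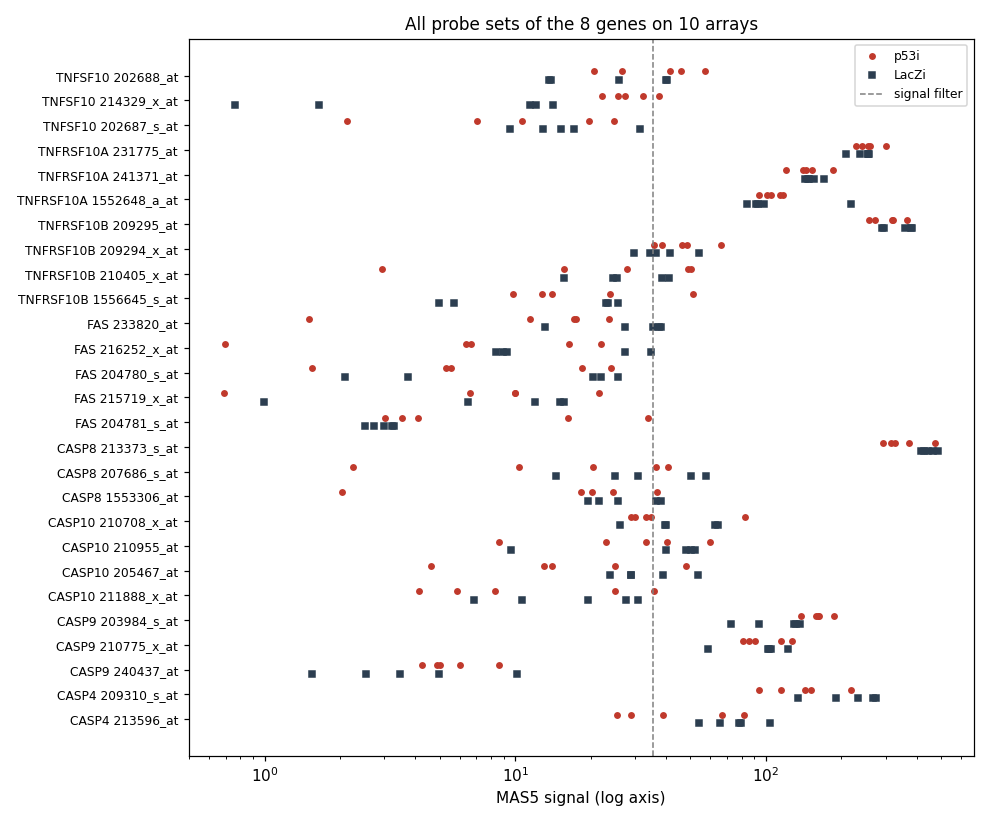
MAS5 signal (log axis) of the 27 probe sets of the 8 genes, 1 point per array, p53i (circles) above LacZi (squares) in each row; the dashed line is the signal filter of 35.3. All FAS signals were 38.3 or lower, and the CASP8 probe set 213373_s_at stood at 294 to 485.

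All 6 markers of the line (ERBB2, GRB7, KRT8, KRT18, KRT19 and EPCAM) had signals from 1840 to 29700. Of the 14 measured markers of leukocytes, endothelium, fibroblasts and adipocytes, 3 passed the filter. These were COL1A1 at 271 to 450, PECAM1 at 82 to 142 and CD3E at 27.4 to 64. Among those that did not pass, PTPRC stood at 0.571 to 20.9 and CD14 at 11.5 to 127. The summed signal of the 6 line markers was 76200 to 99700 on p53i arrays and 67100 to 74300 on LacZi arrays, without overlap, and its part in the differences below was not tested. The D3 treatment was seen in CYP24A1, which inactivates calcitriol, at 5094 ± 804 on D3 arrays (SD, n = 6) and 33.3 ± 6.86 on untreated arrays (SD, n = 4). Transcripts of the gene that p53i is directed at were not analysed here. The ACTB signal ratio between its 3' and 5' control probe sets, which grows as RNA breaks down or labelling shortens, was 6.22 ± 1.77 on p53i arrays and 4.46 ± 0.523 on LacZi arrays (SD, n = 5 each; exact permutation test, two-sided, p = 0.0714), and was highest on p53i untreated replicate 2 (8.72) and p53i 20 h (7.11).

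No tested member passed the threshold in any of the 7 comparisons with all arrays (limma, Benjamini-Hochberg adjusted p, threshold 0.05 over 27306 probe sets). For p53i over LacZi in all conditions, 0 of 11 were called, with 3.55% called among all probe sets, and 4 of 11 had an unadjusted p under 0.05, as did 20.2% of all. For D3 over untreated, as the mean of the 3 times, 0 were called against 1.99% of all, and 1 had an unadjusted p under 0.05 against 16.8% of all. At 8, 20 and 50 h the calls among members were 0, 0 and 0, against 0.0732%, 0.22% and 1.98% of all probe sets, and 0, 1 and 2 members had an unadjusted p under 0.05, against 6.56%, 11.8% and 17.1%. In untreated cells 0 members were called between the siRNAs against 0.00732% of all, and 1 had an unadjusted p under 0.05 against 11.1%. For the difference in D3 response between the siRNAs no probe set was called, which is 0% of all, and 0 members and 6.33% of all probe sets had an unadjusted p under 0.05. Median centring of each array moved the median of all probe sets to -0.128 for the difference in D3 response, against 0.0007 as deposited, and to 0.1036 for untreated cells, against -0.019. It also changed the split of calls over all probe sets, to 503 higher and 193 lower for the siRNA, against 522 and 446 as deposited, and to 179 higher and 483 lower for D3, against 301 and 242. Against shares of 3.55% or lower, a count of 0 among 11 says little about the members in any of the comparisons. When all 27 were fitted without the filter, 0 were called in each comparison, 9 of 27 lay above zero between the siRNAs with a median of -0.14 (all probe sets -0.022), and 13 of 27 lay above zero with D3 with a median of -0.0022 (all probe sets 0.0365).

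**Figure D2:**
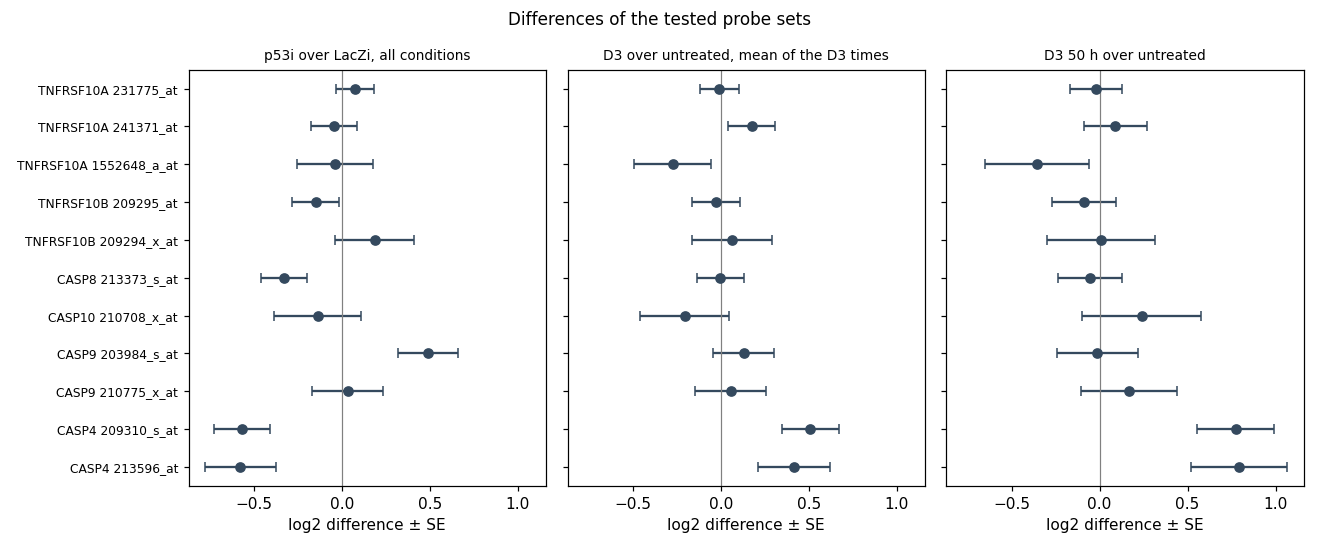
Log2 difference ± SE (limma) of the 11 tested member probe sets for p53i over LacZi, D3 over untreated (mean of the 3 times) and D3 at 50 h over untreated. Both CASP4 probe sets lie below zero for the siRNA (-0.57 and -0.58) and above zero for D3 at 50 h (0.77 and 0.79), and none of the points passed the threshold.

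TNFSF10 encodes TRAIL, the ligand of both TRAIL receptors, and was dim on all arrays. Probe set 214329_x_at had signals of 37.4 and 32.4 in untreated p53i cells and 22.1, 25.7 and 27.5 after 8, 20 and 50 h with D3, against 11.5 and 12.1 in untreated LacZi cells and 0.764, 14.2 and 1.65 after 8, 20 and 50 h. Every p53i array was above every LacZi array. Among all 54613 probe sets that are not controls, 1.38% had all p53i arrays above all LacZi arrays and 1.7% all below. Of the 27 members 2 lay above in this way, this one and CASP9 203984_s_at, and 0 below. Fitted without the filter its difference was 0.94 ± 0.22 (SE), with an adjusted p of 0.0765 (limma), and it was not called. The suffix x_at marks a probe set with probes that may also bind other transcripts.

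The other TNFSF10 probe sets did not separate the siRNAs. Probe set 202688_at had 45.8, 20.7, 41.4, 26.7 and 57.1 on p53i arrays (untreated replicates 1 and 2, then 8, 20 and 50 h) and 39.8, 26.0, 13.7, 13.9 and 40.2 on LacZi arrays in the same order. Signals overlapped, and the untreated duplicates alone differed by 0.75 on the log2 scale in p53i cells. Probe set 202687_s_at had 19.7, 10.6, 7.02, 24.7 and 2.14 on p53i arrays and 9.55, 31.4, 17.1, 12.9 and 15.2 on LacZi arrays. Without the filter, the 3 probe sets of this gene pointed in both directions, with differences of 0.36 for 202688_at, 0.94 for 214329_x_at and -0.23 for 202687_s_at.

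**Figure D3:**
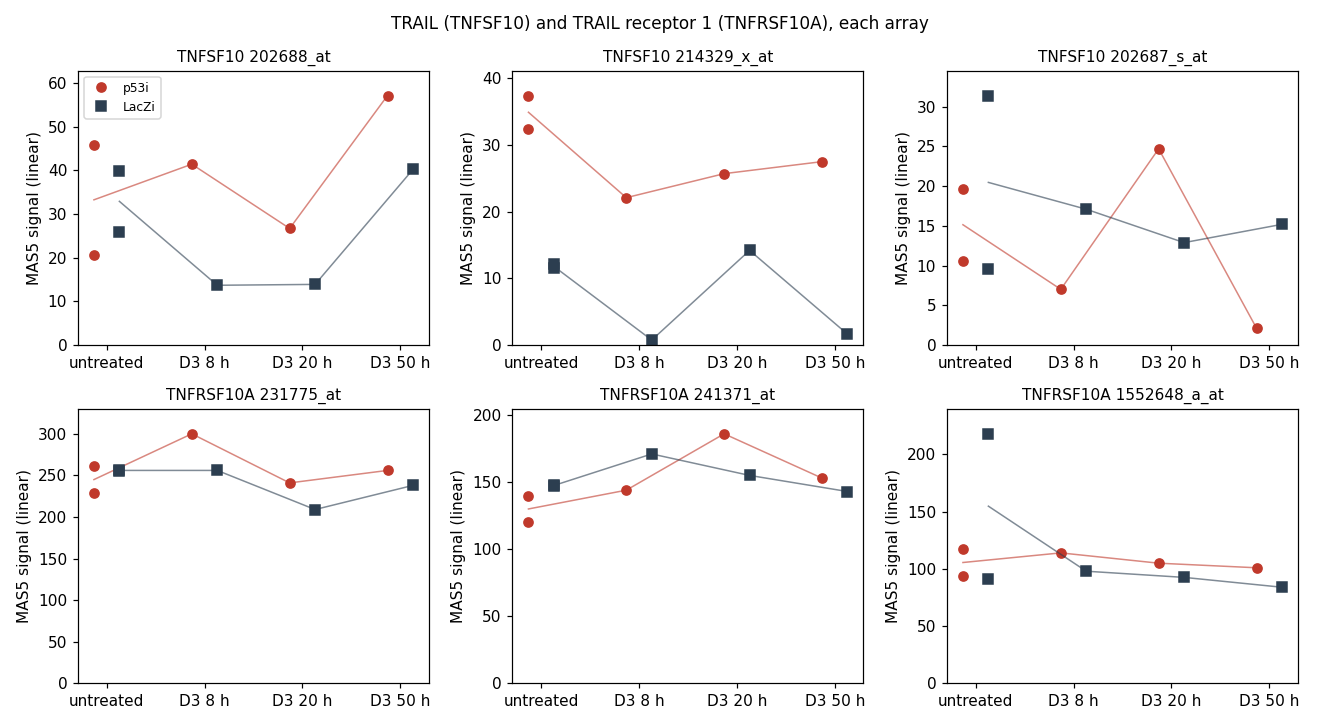
MAS5 signal (linear axis from 0) of the 3 TNFSF10 (upper row) and 3 TNFRSF10A (lower row) probe sets by D3 time, 1 point per array, p53i circles left of LacZi squares, with lines through the untreated mean. TNFSF10 214329_x_at is the panel in which no p53i point meets a LacZi point, and TNFRSF10A 1552648_a_at has 1 LacZi untreated array at 218.

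TNFRSF10A, or DR4, is a TRAIL receptor with a death domain. Its probe set 231775_at had 229, 261, 300, 241 and 256 on p53i arrays and 257, 255, 256, 209 and 238 on LacZi arrays, in the order untreated replicates 1 and 2, 8, 20 and 50 h. The groups overlapped, and the differences were 0.08 ± 0.11 (SE) for the siRNA and -0.0097 ± 0.11 for D3. Probe set 241371_at had 140, 120, 144, 186 and 153 on p53i arrays and 148, 147, 171, 155 and 143 on LacZi arrays, also overlapping, with differences of -0.05 ± 0.13 and 0.17 ± 0.13.

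Probe set 1552648_a_at of TNFRSF10A had 117, 94.2, 114, 105 and 101 on p53i arrays and 91.6, 218, 98.0, 92.6 and 84.0 on LacZi arrays. LacZi untreated replicate 2 stood far above the rest, and the other 9 arrays spanned 84.0 to 117. That array carried most of its D3 difference of -0.27 ± 0.22 (SE), which without it was 0.01. The siRNA difference of this probe set was -0.04 with all arrays and 0.19 without that array. The limma adjusted p of the 3 TNFRSF10A probe sets was 0.748 to 0.941 for the siRNA and 0.557 to 0.978 for D3.

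TNFRSF10B, or DR5, is the other TRAIL receptor with a death domain. Its probe set 209295_at had 367, 272, 258, 317 and 320 on p53i arrays and 379, 296, 382, 360 and 291 on LacZi arrays, in the same order. The ranges overlapped over most of their length, with differences of -0.15 ± 0.13 (SE) for the siRNA and -0.03 ± 0.14 for D3 (limma adjusted p = 0.571 and 0.947). Probe set 209294_x_at had 38.4, 35.8, 46.1, 66.1 and 48.6 on p53i arrays and 36.4, 54.2, 41.3, 29.9 and 34.4 on LacZi arrays. With D3 it stood above the untreated mean at all 3 times in p53i cells and below it at all 3 times in LacZi cells. The difference between these responses was 0.63 ± 0.44 (SE), and it was not called (limma adjusted p = 0.871). The remaining probe sets of this gene were dim, 210405_x_at at 2.94 to 50.4 and 1556645_s_at at 4.95 to 51.1.

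FAS, the receptor of FAS ligand, had all 5 of its probe sets below the signal filter. Probe set 233820_at had 17.5, 11.5, 17.1, 23.7 and 1.5 on p53i arrays and 37.6, 38.3, 27.5, 13.1 and 35.3 on LacZi arrays. It was lower on most p53i arrays, but LacZi 20 h fell within the p53i range, and without the filter the difference was -0.63 ± 0.29 (SE, limma adjusted p = 0.388). Probe sets 216252_x_at, 204780_s_at, 215719_x_at and 204781_s_at spanned 0.694 to 34.7, 1.55 to 25.8, 0.692 to 21.6 and 2.51 to 33.8. Their differences between the siRNAs were -0.34, -0.18, -0.03 and 0.46, all uncalled, and those of single D3 times went in both directions. With no detection calls used, these signals do not show whether FAS transcript was present.

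CASP8 is the initiator caspase that death receptors activate through the adaptor FADD. Probe set 213373_s_at had 473, 294, 372, 315 and 328 on p53i arrays and 415, 426, 464, 485 and 443 on LacZi arrays, in the order untreated replicates 1 and 2, 8, 20 and 50 h. Apart from untreated replicate 1, every p53i array was below every LacZi array. Means were 356 ± 71.1 in p53i cells and 446 ± 28.3 in LacZi cells (SD, n = 5 each), a difference of -0.33 ± 0.13 (SE) that was not called (limma adjusted p = 0.183). Without p53i untreated replicate 1 it was -0.46 and was called (adjusted p = 0.0318), within a range of adjusted p from 0.0318 to 0.773 over 20 alternatives. The lowest p53i signals, 294 and 315, came from the arrays with the 2 highest ACTB ratios. With the log2 ratio as a covariate the difference was -0.13, and without those arrays it was -0.15.

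With D3, the same CASP8 probe set showed a difference of -0.0022 ± 0.13 (SE). Against untreated, the log2 difference after 8, 20 and 50 h was -0.0053, -0.24 and -0.18 in p53i cells, and 0.14, 0.20 and 0.07 in LacZi cells. The difference between the responses, -0.28 ± 0.26 (SE), was not called (limma adjusted p = 0.91). It was -0.60 when p53i untreated replicate 2 was left out and 0.05 when replicate 1 was, the duplicates from which the p53i response is measured and which differed by 0.66. Probe sets 207686_s_at and 1553306_at were dim, at 2.25 to 57.6 and 2.04 to 38.1, and 207686_s_at had a difference of -0.49 between the siRNAs without the filter.

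**Figure D4:**
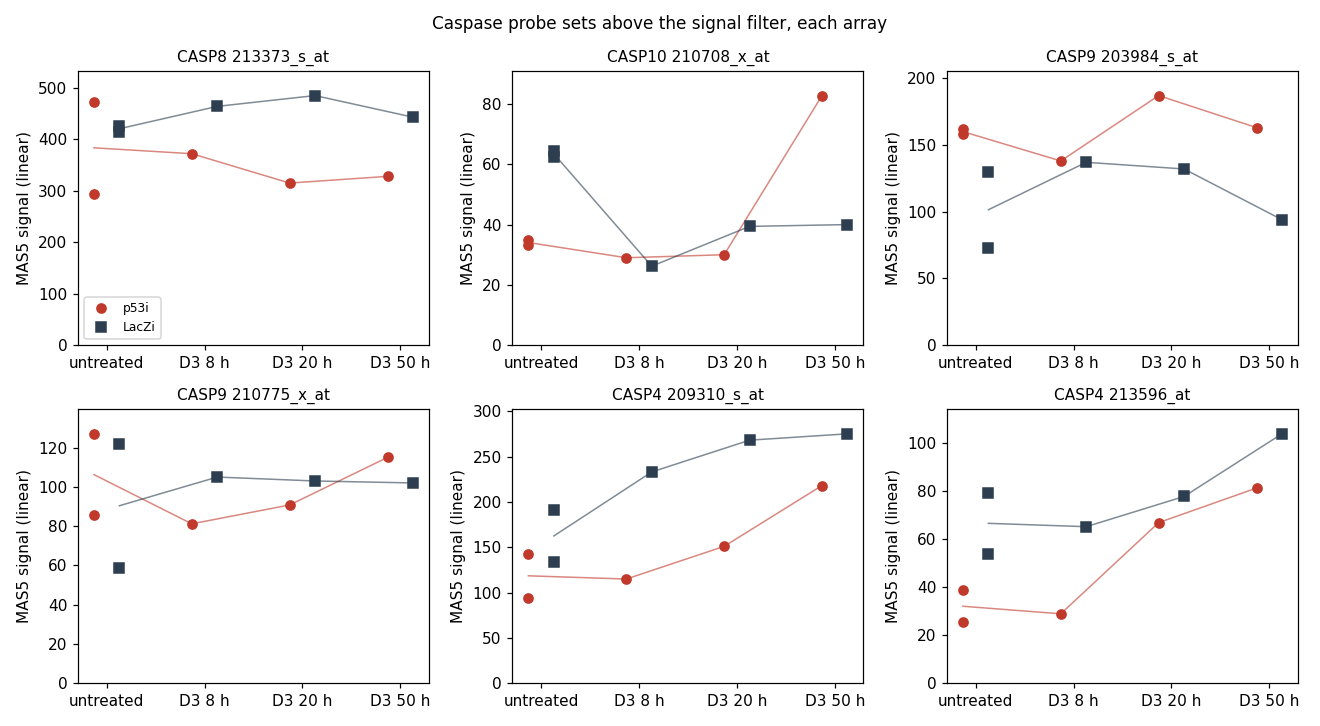
MAS5 signal (linear axis from 0) of the 6 caspase probe sets that passed the filter (CASP8, CASP10, CASP9 and CASP4) by D3 time, 1 point per array, p53i circles left of LacZi squares, with lines through the untreated mean. At each D3 time the p53i array lies below the LacZi array for both CASP4 probe sets and for CASP8, and above it for CASP9 203984_s_at.

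CASP10, a close relative of CASP8 with the same death effector domains, was near the filter. Probe set 210708_x_at had 33.2, 34.9, 29.0, 30.0 and 82.8 on p53i arrays and 62.4, 64.5, 26.2, 39.4 and 40.0 on LacZi arrays. Signals in untreated p53i cells were below those in untreated LacZi cells, with a difference of -0.67 ± 0.33 (SE, limma adjusted p = 0.497), whereas at 50 h the p53i array was the highest of all 10. The siRNA difference over all conditions was -0.14 ± 0.25 and the difference between the D3 responses 0.88 ± 0.45, neither called (adjusted p = 0.805 and 0.834). With 1 array left out the siRNA difference ran from -0.38, without either 50 h array, to -0.05, without p53i untreated replicate 1 or LacZi untreated replicate 2. It was -0.06 without p53i untreated replicate 2 or LacZi untreated replicate 1, and the difference between the responses ran from 0.58 to 1.12. The D3 difference of 210708_x_at over the 3 times was -0.20 and was not called (limma adjusted p = 0.744). At 8, 20 and 50 h it was -0.53, -0.32 and 0.24.

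The other CASP10 probe sets lay below the filter. Probe set 211888_x_at had 4.14, 5.85, 8.31, 35.7 and 25 on p53i arrays and 6.82, 10.6, 30.9, 19.6 and 27.7 on LacZi arrays. On 5 of 6 D3 arrays it exceeded all 4 untreated arrays, and p53i 8 h did not. Means were 24.5 ± 9.61 with D3 (SD, n = 6) and 6.84 ± 2.71 untreated (SD, n = 4), and without the filter the difference was 0.80 ± 0.25 (SE, limma adjusted p = 0.22). Probe set 205467_at was also higher with D3, by 0.58 ± 0.27 (adjusted p = 0.439), with 4.60, 14.0, 25.1, 13 and 47.9 on p53i arrays and 28.9, 23.8, 53.6, 28.9 and 39.0 on LacZi arrays, which overlapped. Probe set 210955_at ranged from 8.61 to 60.0 and had a D3 difference of 0.26 ± 0.36. Signals this low lie in the range where MAS5 values scatter between duplicates, as the untreated LacZi pair of 52.1 and 9.65 on 210955_at shows.

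CASP9, the initiator caspase of the apoptosome, had one probe set that separated the siRNAs and one that did not. Probe set 203984_s_at had 162, 158, 138, 187 and 163 on p53i arrays and 130, 72.9, 137, 132 and 94.0 on LacZi arrays, in the order untreated replicates 1 and 2, 8, 20 and 50 h. Every p53i array was above every LacZi array, although at 8 h by 138 against 137. It was the only 1 of the 11 tested members with such a separation, and 2.46% of all tested probe sets had p53i above LacZi throughout and 2.81% below. Means were 162 ± 17.2 in p53i cells and 113 ± 28.1 in LacZi cells (SD, n = 5 each), and the difference of 0.49 ± 0.17 (SE) was not called (limma adjusted p = 0.132, and 0.106 to 0.526 over 19 alternatives). Over those alternatives, with the ACTB ratio as a covariate among them, the difference of 203984_s_at ran from 0.36 to 0.61. Probe set 210775_x_at had 127, 85.5, 81.2, 90.8 and 115 on p53i arrays and 58.8, 122, 105, 103 and 102 on LacZi arrays, with a difference of 0.03 ± 0.20. Over the 10 arrays the log2 values of these probe sets had a Pearson r of -0.18. D3 differences were 0.13 ± 0.17 and 0.06 ± 0.20, and the third probe set, 240437_at, stood at 1.55 to 10.2.

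CASP4 had the largest siRNA differences among the tested members, in both of its probe sets. Probe set 209310_s_at had 143, 94.1, 115, 151 and 218 on p53i arrays and 134, 191, 233, 268 and 275 on LacZi arrays, in the order untreated replicates 1 and 2, 8, 20 and 50 h. In both siRNAs the signals stood higher at later D3 times, and at each D3 time the p53i array was the lower one. Means were 144 ± 47.0 in p53i cells and 220 ± 58.5 in LacZi cells (SD, n = 5 each). The difference of -0.57 ± 0.16 (SE) missed the threshold (limma adjusted p = 0.0716). Matched on condition it was -0.41 without D3 and -0.92, -0.76 and -0.32 after 8, 20 and 50 h, beside gaps of 0.53 and 0.46 between the untreated duplicates of p53i and LacZi. Without p53i untreated replicate 1 it was -0.67 and was called (adjusted p = 0.0337), and over its 19 alternatives the adjusted p was 0.0337 to 0.397.

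Probe set 213596_at of CASP4 had 25.4, 38.9, 29.0, 67.0 and 81.4 on p53i arrays and 54.0, 79.4, 65.3, 77.9 and 104 on LacZi arrays. It lay below LacZi in 4 of 4 matched conditions too, with log2 differences of -0.78 without D3 and -0.85, -0.18 and -0.30 after 8, 20 and 50 h. Means were 48.3 ± 24.6 in p53i cells and 76.1 ± 18.7 in LacZi cells (SD, n = 5 each). The difference of -0.58 ± 0.20 (SE) was not called (limma adjusted p = 0.133, and 0.126 to 0.286 over 18 alternatives). The log2 values of both CASP4 probe sets had a Pearson r of 0.80 over the 10 arrays, a description over arrays that share siRNA and D3 groups. After adding the ACTB ratio to the model, the differences were -0.45 for 209310_s_at and -0.73 for 213596_at.

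For D3, CASP4 209310_s_at averaged 210 ± 64.2 on D3 arrays (SD, n = 6) and 141 ± 39.8 on untreated arrays (SD, n = 4), and the groups overlapped. No member separated D3 from untreated arrays: 0 of 27 lay above and 0 below, against 1.36% and 1.02% of all probe sets, and among the 11 tested 0 and 0, against 1.96% and 1.75% of those tested. The difference of 209310_s_at over the 3 times was 0.51 ± 0.16 (SE, limma adjusted p = 0.133). At 8, 20 and 50 h it was 0.24, 0.51 and 0.77 ± 0.22 (SE, the same at each time), and the adjusted p at 50 h was 0.0921, with 0.0628 to 0.58 over 19 alternatives. In p53i cells the values were -0.01, 0.34 and 0.82 at 8, 20 and 50 h, and in LacZi cells 0.50, 0.69 and 0.72. Probe set 213596_at had -0.09, 0.80 and 1.03 in p53i cells and -0.0074, 0.20 and 0.55 in LacZi cells, and its difference at 50 h was 0.79 ± 0.27 (SE, adjusted p = 0.163). At 8 h 209310_s_at was above untreated in LacZi cells only, while 213596_at was not above it in either, and the difference between the D3 responses was -0.25 ± 0.33 and 0.33 ± 0.42 for these probe sets, so it had no common sign. A bulk sample cannot tell fewer expressing cells from less transcript per cell, which holds for all values here.

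The genes whose log2 values ran most like those of each member were ranked over the 10 arrays by Pearson r among 22046 probe sets. For CASP4 209310_s_at they were LHFPL2 (0.97), PLEK2 (0.96) and SGPP2 (0.94), and for CASP8 CEBPZOS (0.96), VAMP7 (0.94) and STRN3 (0.94). CASP9 203984_s_at came closest to RASSF5 (0.95), SLC33A2 (0.94) and GNB1L (0.94), and CASP10 210708_x_at to EIF3A (0.96), LINC01424 (0.94) and C19orf12 (0.93). The receptors had weaker likenesses. TNFRSF10A 231775_at had 0.90 with AP4B1 and BAIAP2-DT and 0.89 with SPATC1L, and TNFRSF10B 209295_at had 0.91 with PHC1, NHLRC2 and TBC1D1. These belong to single probe sets. With the other tested probe sets of its gene, 231775_at had a Pearson r of -0.20 (241371_at) and 0.18 (1552648_a_at). For 209295_at it was -0.26 with 209294_x_at. High values arise readily when so many probe sets are ranked over 10 arrays, and no p is given.

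Around these members, the rest of the pathway was measured by the brightest probe set of each gene. Of 7 other caspases 5 had a named probe set and 3 were tested. CASP2, a caspase linked to DNA damage, rose by 0.42 ± 0.09 (SE) in p53i cells, with 1411 ± 135 against 1049 ± 100.0 in LacZi cells (SD, n = 5 each; limma adjusted p = 0.033), and 0 fell. That call was lost in 12 of 20 alternatives, among them 8 of the 10 with 1 array left out (all but those without an untreated p53i array) and the one with the ACTB ratio. Of 12 other death ligands, receptors and decoys 5 were tested, and of 15 adaptors and regulators 13. Among the adaptors and regulators, FADD (-0.15) and the CASP8 inhibitor CFLAR (-0.28) lay below zero between the siRNAs. BID (0.24) and DEDD (0.21) lay above it, and all of these were picked after their values were seen. In either list 0 were called for the siRNA or for D3. Over all probe sets 3.55% were called for the siRNA and 1.99% for D3, so counts in lists this short say little about them. The medians of the tested genes were -0.17 for the ligands, receptors and decoys, 0.03 for the adaptors and regulators and -0.03 for the other caspases between the siRNAs, and 0.17, -0.19 and 0.10 with D3, against -0.016 and 0.0197 over all probe sets.

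Among 10 genes of the apoptosome and its inhibitors 9 were tested, with medians of 0.05 for the siRNA and -0.11 for D3, against -0.016 and 0.0197 over all probe sets. With the siRNA 1 rose and 1 fell, where 3.55% of all probe sets were called, and with D3 0 rose and 1 fell, where 1.99% were called. In p53i cells XAF1, an interferon-inducible partner of XIAP, rose by 2.55 ± 0.31 (SE), with 131 ± 84.6 against 6.17 ± 4.91 in LacZi cells (SD, n = 5 each; limma adjusted p = 0.00211). XAF1 passed the signal filter through its p53i arrays, its LacZi mean lying below the filter near background, so it had to differ and the size of the difference is not a measured fold. That size depended on the offset, at 4.50 without one and 1.37 with 64. The adjusted p of XAF1 and its calls in all 19 alternatives add no support, since its place among the tested probe sets rested on its p53i arrays. CYCS, cytochrome c, fell by 0.27 ± 0.06 (SE; adjusted p = 0.0425), and its call was lost in 15 of 20 alternatives, including each of the 10 with 1 array left out. With D3, BIRC5, the survivin gene, which is also a cell cycle gene, fell by 0.50 ± 0.09 (SE), to 796 ± 111 on D3 arrays (SD, n = 6) against 1132 ± 118 on untreated arrays (SD, n = 4; adjusted p = 0.0182). Its call was lost without LacZi untreated replicate 1, p53i untreated replicate 1, either 8 h array, either 20 h array or p53i 50 h, and without the intensity trend.

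Of 14 genes of the inflammasome, the machinery that CASP4 feeds into, 7 were tested. None was called for the siRNA or for D3 over the 3 times, against 3.55% and 1.99% of all probe sets, and at 50 h 1 was called, against 1.98%. The medians of the tested genes were -0.23 for the siRNA and 0.20 for D3, against -0.016 and 0.0197 over all probe sets. IL18, an inflammatory cytokine, rose by 0.80 ± 0.17 (SE) at 50 h with D3 (limma adjusted p = 0.0348), a call chosen after its values were seen and lost in 11 of 20 alternatives, and its siRNA difference was -0.47 (adjusted p = 0.0587). GSDMD, the gasdermin that CASP4 cuts, had a siRNA difference of 0.22 and was not called.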

How the data were processed

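RNA from SKBR3 cells was measured on 10 arrays. The authors deposited MAS5 signals, per the submitters' processing notes, a linear intensity per probe set, with no MAS5 version given in the sources used here. MAS5 scaling sets the mean after trimming 2% at each end to the same value on every array, so its equality does not show that the arrays were alike. The median signal ran from 35.7 to 44.3 over the arrays. No further normalization was applied in the main fit. The number of arrays limits the precision. Symbols came from the platform annotation: 41097 probe sets had 1 symbol, 1801 several and 11777 none, and none was changed by RefSeq.

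Log2(signal + 16) was fitted in limma 3.58.1 (R 4.3.3; eBayes with an intensity trend, two-sided) over all 10 arrays, each of 27306 probe sets on its own, in the upper 50% by mean, without 62 control probe sets. The model was siRNA plus D3 time, with a siRNA-by-D3 term for the difference in response and group means for untreated cells. A D3 time had 1 array per siRNA, assumed to vary like the others. Benjamini-Hochberg p-values were adjusted over all probe sets tested, threshold 0.05. The model was also run on simulated data with independent noise for each probe set and array. That simulation held no differences in quality between arrays, so it cannot show how the model deals with them.

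The 8 genes and 5 pathway lists were chosen with earlier results of these data known. Every member probe set was named, with list genes past the threshold for the siRNA, D3 over the 3 times, the response difference or untreated cells (up to 4 per list and comparison), the 3 nearest genes by Pearson r, and VDR (D3 difference -0.32, not called) and CYP24A1. FADD, CFLAR, BID, DEDD, GSDMD and IL18 were added after their values were seen. Alternatives were other scalings, offsets, filters, one probe set per gene, no trend, the ACTB ratio, single arrays left out and a replicate block. Leaving out the 2 arrays with the highest ACTB ratio was added after seeing the data.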

Additional observations from a re-analysis of the deposited data

Results flagged for a closer look

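Among the 5 arrays of each siRNA, untreated and D3 together, 3 of the 27 member probe sets had 1 array far from the others. Each probe set was looked at in both siRNAs, and chance alone marks about 1 in 20 such groups, so a few flags arise readily. TNFRSF10A 1552648_a_at stood at 218 on LacZi untreated replicate 2, where the next highest LacZi array had 98.0 and the lowest 84.0. CASP10 210708_x_at stood at 82.8 on p53i 50 h, where the next highest p53i array had 34.9 and the lowest 29.0. CASP10 210955_at stood at 9.65 on LacZi untreated replicate 2, where the next lowest LacZi array had 39.9 and the highest 52.1.

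For 2 of the 27 member probe sets all D3 arrays of the siRNAs lay on opposite sides of their untreated means. How many of all probe sets do so was not counted, so the count says little about the members. The 3 D3 arrays of a siRNA also share the same untreated mean. TNFRSF10B 209294_x_at was above it in p53i cells and below it in LacZi cells, with a difference in response of 0.63 ± 0.44 (SE, limma adjusted p = 0.871). CASP8 213373_s_at was below it in p53i cells and above it in LacZi cells, with a difference in response of -0.28 ± 0.26 (SE, limma adjusted p = 0.91). The 8 h value in p53i cells was -0.0053 against a mean of untreated duplicates 0.66 apart, and the difference in response was -0.60 when p53i untreated replicate 2 was left out and 0.05 when replicate 1 was. That of TNFRSF10B ran from 0.42 to 0.84 with 1 array left out.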

How the results depend on the processing

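The count of called members was 0 under every alternative in all 7 comparisons, except that with 1 array left out it ranged from 0 to 2 for p53i over LacZi. The count of 2, CASP8 213373_s_at and CASP4 209310_s_at, arose without p53i untreated replicate 1. In that setting the calls over all probe sets were also at their highest, 1339 of 27306 against 968 with all arrays. Counts over all probe sets moved more. With 1 array left out they ran from 130 to 1339 for the siRNA (968 with all arrays), from 115 to 1241 for D3 (543), from 26 to 1271 at 50 h (540), from 1 to 246 at 20 h (60), from 1 to 36 at 8 h (20), from 2 to 831 for untreated cells (2) and from 0 to 326 for the difference in response (0). Under the other alternatives they ran from 64 to 1226 for the siRNA, from 91 to 1070 for D3, from 56 to 971 at 50 h, from 6 to 153 at 20 h, from 3 to 42 at 8 h and from 0 to 283 for untreated cells, and stayed at 0 for the difference in response. With the ACTB ratio as a covariate, 86 were called for the siRNA, against 968, and 1070 for D3, against 543. The cause of these shifts was not tested. The replicate block on the untreated arrays called 0 members and 283 probe sets. The labels of the untreated arrays share only a number. Over the 27306 tested probe sets, the deviations of the replicate 1 arrays from their group means correlated at 0.13 between the siRNAs. With duplicates, replicate 2 only mirrors this value. Signals near the background limit TNFSF10, FAS and most CASP10 probe sets.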
